A study of Caenorhabditis elegans with 11 samples.

Results

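RNA from early embryos of cfp-1 mutants was compared directly with RNA from early embryos of sin-3 mutants, to see where the transcriptomes of these mutants differ from each other. All libraries whose labels give either genotype were used: 3 cfp-1 and 2 sin-3 libraries, 5 of the 11 libraries in the series. Of the 46772 genes listed, 11547 protein-coding genes had a mean normalised count above 10 and were tested. The other libraries came from set-2 mutant embryos (3) and from wild-type N2 embryos (WT, 3), all in the same strand-marking polyA RNA preparation. Embryos were released from young adults with hypochlorite and frozen, and no agent distinguishes the groups. The strains listed in the study carry cfp-1(tm6369), a deletion with a predicted truncated product, sin-3(tm1276) and set-2(bn129). The lists hold balanced and outcrossed derivatives of these alleles, and which derivative gave the RNA is not given in the sources used here. Replicates are stated to be independent biological samples, and with 2 sin-3 libraries a result leans heavily on each of them.

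CFP-1 is the CXXC zinc finger subunit of the SET1/COMPASS complex, which methylates lysine 4 of histone H3 at active promoters, with SET-2 as the catalytic subunit. SIN-3 is the scaffold of a corepressor complex that carries class I histone deacetylases, which remove acetyl groups from histone tails. Both proteins act in the germline and early embryo, where maternally loaded transcripts are cleared as zygotic transcription begins. In whole embryo samples, fewer cells of a type and less RNA per cell cannot be told apart.

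The labels were checked first with the mutated genes. The cfp-1 transcript (chromosome IV, 14077435-14083568) had 1192, 1476 and 1520.1 normalised counts (scaled by TMM, trimmed mean of M values, to the mean library) in the cfp-1 libraries, against 5653 and 6351 in the sin-3 libraries, and its WT mean was 4121 ± 119.6 (SD, n = 3). All cfp-1 libraries were below both sin-3 libraries, with a log2 fold change of cfp-1 over sin-3 of -2.10 (SE 0.14, adjusted p = 6.7e-06, edgeR quasi-likelihood test with Benjamini-Hochberg adjustment, as for every adjusted p given here). The sin-3 transcript (chromosome I, 8416816-8425051) had 8348, 7211 and 8793 counts in cfp-1 libraries, against 3909 and 4447 in sin-3 libraries, with a WT mean of 9396 ± 1150.1 (SD, n = 3). It was higher in cfp-1 by 0.96 on the log2 scale (SE 0.16, adjusted p = 0.0043), a call lost without either sin-3 replicate. Each mutated gene was thus low in the strain that carries its name. The cfp-1 gene overlaps another coding gene on the same strand, and sin-3 overlaps a coding gene on the opposite strand. Strand could not separate the reads of cfp-1 from its neighbour's, and the counting is not stated to use strand. The reads of both genes may thus include some of the neighbour's.

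The difference between the mutants was spread over many genes. In cfp-1 embryos 721 genes (6.24% of those tested) were higher than in sin-3 embryos and 617 (5.34%) were lower at an adjusted p under 0.05. The median log2 fold change of all genes tested was 0.04. The libraries did not overlap, with every cfp-1 library above both sin-3 libraries, in 24.6% of genes tested, and with every cfp-1 library below in 24.2%. Against WT, cfp-1 embryos had 1462 genes higher (12.7%) and 1315 lower (11.4%), and sin-3 embryos had 1456 higher (12.6%) and 1450 lower (12.6%). These contrasts share their WT libraries, and each shares its mutant libraries with the direct comparison, so they are given below only as each gene's position relative to WT. At an unadjusted p under 0.05, 15.1% of genes were higher and 13% lower, and DESeq2 called 7.38% higher and 9.09% lower. Which direction held more calls turned with the method. Of all calls 53.9% were higher with TMM scaling and 65.6% with upper-quartile scaling (959 genes higher and 504 lower), but 44.8% with DESeq2, 47% with DESeq2 size factors in edgeR, 46% with TMM factors from all listed genes and 45.1% with offsets that remove each library's trend with summed exon length. Leaving out single libraries moved the counts most for the sin-3 strain: 89 higher and 114 lower without sin-3 replicate 1, and 51 and 57 without sin-3 replicate 2. The counts were 423 and 310 without cfp-1 replicate 1, 389 and 380 without cfp-1 replicate 3, and 1000 and 1013 without set-2 replicate 2.

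Among called genes with non-overlapping libraries and a mean of at least 50 in the higher strain, the highest fold change of cfp-1 over sin-3 was that of crml-1, a CARMIL family protein that links actin filament capping to the membrane. crml-1 (chromosome I, 7152462-7156786) had 12465, 15869.8 and 17293 counts in cfp-1 libraries, against 330.4 and 448 in sin-3 libraries. The log2 fold change was 5.28 (SE 0.27, adjusted p = 8.19e-07). The WT mean of crml-1 was 11436 ± 950.1 (SD, n = 3), so the low value lay in sin-3 embryos, at -4.87 relative to WT (adjusted p = 1.11e-06), whereas cfp-1 embryos were at 0.41 (adjusted p = 0.121). The gene lies within 2 Mb of sin-3 on the same chromosome.

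Other genes were low in sin-3 and near the WT level in cfp-1 embryos. The glutathione S-transferase gene gst-43 had 237, 183 and 253 counts in cfp-1 libraries, against 11 and 12.2 in sin-3 libraries, and averaged 217 ± 27 in WT (SD, n = 3). Its log2 fold change was 4.25 (SE 0.27, adjusted p = 4.68e-06). C04F12.5, which overlaps the ribosomal protein gene rpl-14 on the opposite strand, had 443, 279 and 333 counts in cfp-1 libraries, against 45.2 and 48.1 in sin-3 libraries, with a WT mean of 347 ± 71.4 (SD, n = 3). Both genes were lower in sin-3 than in WT (log2 fold change -4.20 for gst-43 and -2.89 for C04F12.5). C04F12.5, like crml-1, lies within 2 Mb of sin-3, whereas gst-43 lies further away on the same chromosome. The stress-related gene scb-1 had 820.5, 621 and 863 counts in cfp-1 libraries, against 106 and 84.8 in sin-3 libraries, with a log2 fold change of 3.02 (SE 0.20, adjusted p = 6.06e-06) and a WT mean of 546 ± 63.1 (SD, n = 3). It was slightly higher in cfp-1 than in WT (log2 fold change 0.49, adjusted p = 0.033) and much lower in sin-3 than in WT (-2.53, adjusted p = 2.87e-05).

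A further set was high in cfp-1 embryos and near WT in sin-3 embryos. C55C3.3 had 352, 298 and 330.1 counts in cfp-1 libraries, against 34.3 and 25.4 in sin-3 libraries, beside a WT mean of 26 ± 4.89 (SD, n = 3). Its log2 fold change was 3.46 (SE 0.27, adjusted p = 2.87e-05) and it was at 3.64 in cfp-1 over WT, against 0.18 in sin-3 over WT. R01H10.4 had 136, 119.6 and 148 counts in cfp-1 libraries, against 12.3 and 16 in sin-3 libraries, and idpp-7 had 79.7, 117 and 136, against 5.48 and 11.3. Their WT means were 10.9 for R01H10.4 and 8.94 for idpp-7, and neither gene passed the test against WT in sin-3 embryos (adjusted p = 0.598 for R01H10.4 and 0.981 for idpp-7). Their libraries do not overlap between the mutants because the genes were chosen on that condition. R01H10.4 overlaps the coding gene rip-1 on the opposite strand, and rip-1 was higher in cfp-1 as well (2.05, adjusted p = 0.00406).

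For C27D8.3 and hint-3 the mutants lay on opposite sides of WT. C27D8.3 had 2668, 3279 and 3011 counts in cfp-1 libraries, against 203 and 252 in sin-3 libraries, with a WT mean of 898 ± 73.8 (SD, n = 3). It was higher than WT in cfp-1 (log2 fold change 1.73, adjusted p = 6.55e-05) and lower than WT in sin-3 (-1.98, adjusted p = 0.000197), which gave 3.71 between the mutants (SE 0.22, adjusted p = 3.19e-06). C27D8.3 overlaps 2 coding genes on the opposite strand. The histidine triad gene hint-3 had 636, 556 and 700.3 counts in cfp-1 libraries, against 101 and 77.3 in sin-3 libraries, with a WT mean of 203 ± 28.6 (SD, n = 3). Its fold changes were 1.63 in cfp-1 over WT, -1.19 in sin-3 over WT and 2.83 between the mutants (adjusted p = 0.0019, 0.0211 and 0.000872 in that order). The sperm meiosis PDZ gene smz-1 was higher by 3.41 on the log2 scale (SE 0.52, adjusted p = 0.00285), with 98.5, 82.5 and 102 counts in cfp-1 libraries, against 5.48 and 11.3 in sin-3 libraries. Its WT mean was 54 ± 22.6 (SD, n = 3). It passed the test against WT in sin-3 (-2.61, adjusted p = 0.00473) but not in cfp-1 (0.80, adjusted p = 0.128).

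In the other direction, the lowest fold change of these genes belonged to plk-3, which encodes a polo-like kinase. plk-3 (chromosome IV, 7470860-7473209) had 28.1, 16.7 and 16.3 counts in cfp-1 libraries, against 643 and 617 in sin-3 libraries, with a log2 fold change of -4.92 (SE 0.24, adjusted p = 8.19e-07). The WT mean was 332 ± 41.1 (SD, n = 3), so plk-3 was below WT in cfp-1 (-4.0, adjusted p = 1.66e-06) and above WT in sin-3 (0.92, adjusted p = 0.00717). Next to it, F55G1.6 had 148, 71.8 and 76 counts in cfp-1 libraries, against 1068 and 1051 in sin-3 libraries, and the mitochondrial carrier family gene slc-25A18.2 had 9.38, 8.37 and 6.51, against 76.8 and 105. Both neighbours were low in cfp-1. In sin-3 embryos slc-25A18.2 was near WT (log2 fold change -0.08). F55G1.6 was at 0.52 in sin-3 over WT and did not pass that test (adjusted p = 0.147). Both of its sin-3 libraries were nevertheless above every WT library (622, 818 and 779).

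The F-box gene fbxa-192 was below WT in both mutants and lower in cfp-1. fbxa-192 had 8.44, 12 and 11.9 counts in cfp-1 libraries, against 245 and 197 in sin-3 libraries, and 683 ± 47.7 in WT (SD, n = 3). Its log2 fold change between the mutants was -4.35 (SE 0.26, adjusted p = 3.19e-06), beside -5.98 in cfp-1 over WT and -1.63 in sin-3 over WT. Y55F3BR.2 had 73.1, 90.9 and 95.5 counts in cfp-1 libraries, against 524 and 626 in sin-3 libraries, and lay on opposite sides of a WT mean of 297. F26H11.4 had 25.3, 32.3 and 31.5 counts in cfp-1 libraries, against 207 and 257 in sin-3 libraries, again on both sides of its WT mean of 85.4. Y55F3BR.2 and F26H11.4 passed the test against WT in each mutant, in opposite directions.

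Other genes were above WT in sin-3 embryos. The calcium/calmodulin-dependent kinase kinase gene ckk-1 had 38.4, 25.1 and 16.3 counts in cfp-1 libraries, against 192 and 209 in sin-3 libraries, with a WT mean of 28 ± 14.9 (SD, n = 3) and a log2 fold change of -2.90 (SE 0.41, adjusted p = 0.00187). C30G12.1 had 8.44, 19.1 and 18.5 counts in cfp-1 libraries, against 233 and 194 in sin-3 libraries, with a WT mean of 28.6. srw-85, of a chemoreceptor gene family, had 4.69, 8.37 and 0 counts in cfp-1 libraries, against 83.6 and 99.9 in sin-3 libraries, with a WT mean of 2.75. The call on srw-85 was lost with DESeq2. All 3 passed the test against WT in sin-3 embryos, whereas cfp-1 embryos did not pass the test against WT (adjusted p = 0.94 for ckk-1, 0.0867 for C30G12.1 and 0.61 for srw-85).

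**Figure D1:**
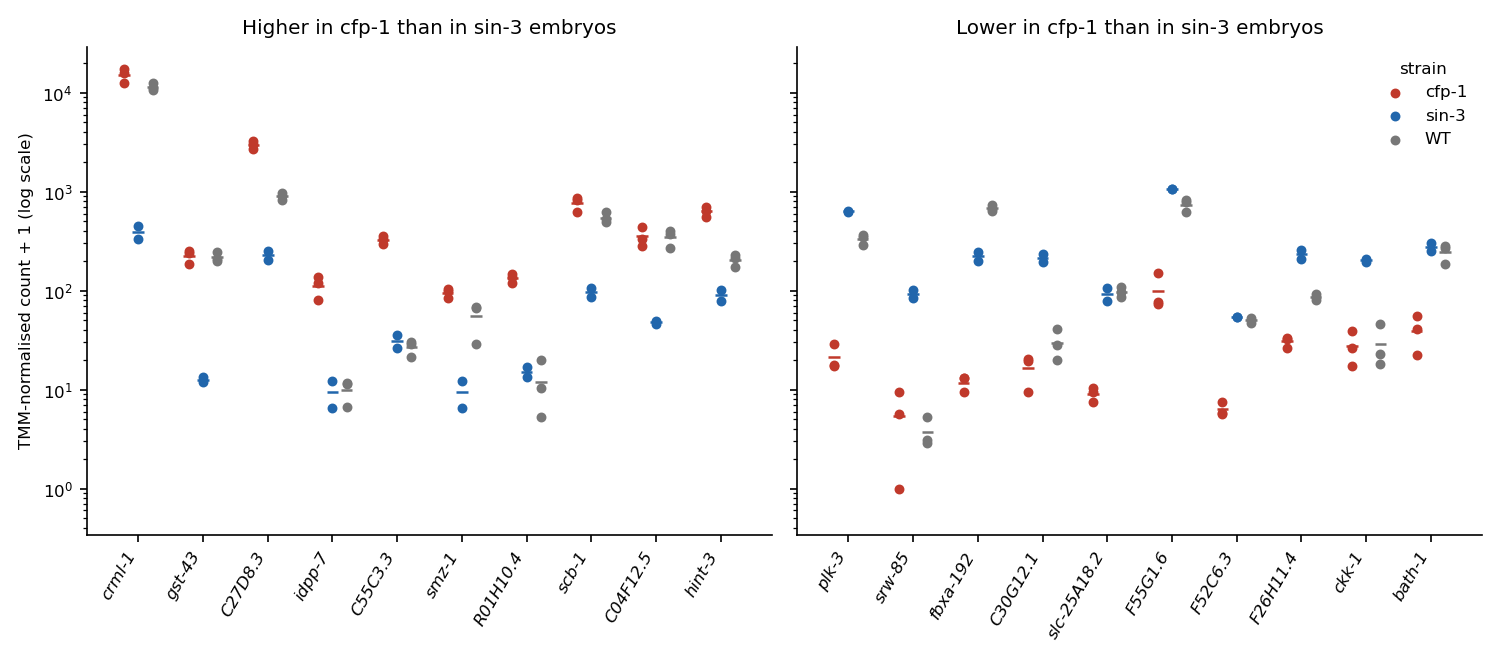
TMM-normalised counts plus 1 (log axis) of the 10 genes with the highest and the 10 with the lowest fold change of cfp-1 over sin-3 among genes whose libraries did not overlap; points are libraries (cfp-1 red, sin-3 blue, WT grey) and short lines are means. The red and blue points are separate for every gene because the genes were chosen on that condition. The grey WT points of crml-1 sit with cfp-1, whereas those of slc-25A18.2 sit with sin-3.

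Few other subunits of either complex passed the edgeR test. Of 8 SET1/COMPASS subunits tested, cfp-1 was lower and wdr-5.1, a WD40 scaffold of the methyltransferase core, was higher, whereas 1 was higher and 3 were lower both at an unadjusted p under 0.05 and with DESeq2. wdr-5.1 had 8389, 7594 and 7774 counts in cfp-1 libraries, against 5899 and 6251 in sin-3 libraries, a log2 fold change of 0.38 (SE 0.10, adjusted p = 0.0299). This call was lost in 10 alternative settings, among them those that left out cfp-1 replicate 1 or 3, either sin-3 replicate or WT replicate 3. The catalytic subunit gene set-2 had 7864, 8359 and 7797 counts in cfp-1 libraries, against 9411 and 10659.6 in sin-3 libraries, and its log2 fold change of -0.33 did not pass the test (adjusted p = 0.361). The other genes of this list did not pass either in edgeR: ash-2 (-0.39, adjusted p = 0.0814), hcf-1 (-0.27, adjusted p = 0.0887), dpy-30 (0.23, adjusted p = 0.244), rbbp-5 (0.14, adjusted p = 0.531) and swd-2.1 (-0.05, adjusted p = 0.853). Of these, ash-2 passed in 2 alternative settings and hcf-1 in 1. Their libraries did not overlap between the mutants for ash-2, hcf-1 and dpy-30, as in nearly 1 of every 2 genes tested (24.6% above and 24.2% below), and overlapped for the other pair.

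Of 7 SIN3 complex genes tested, sin-3 alone passed in edgeR and 1 was called by DESeq2. The deacetylase gene hda-1 had 11449, 12117 and 11341 counts in cfp-1 libraries, against 13792 and 12620.2 in sin-3 libraries (log2 fold change -0.18, SE 0.14, adjusted p = 0.425). hda-3, another class I deacetylase, was at -0.22 (adjusted p = 0.184). The histone-binding genes lin-53 and rba-1 were at -0.21 (adjusted p = 0.217) and -0.01 (adjusted p = 0.962), the chromodomain gene mrg-1 was at -0.09 (adjusted p = 0.668) and the PHD finger gene athp-1 at -0.31 (adjusted p = 0.141). A list of 10 other histone deacetylases, sirtuins included, had no gene called by edgeR in either direction (3 lower at an unadjusted p under 0.05, 1 lower with DESeq2), with a median log2 fold change of -0.21.

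Histone genes had the highest median of all the gene lists. Of 82 histone genes listed, 48 were tested, and 23 were higher in cfp-1 than in sin-3 embryos while none was lower (32 and 0 at an unadjusted p under 0.05, and 25 and 0 with DESeq2). The median log2 fold change of the 48 was 1.09, beside 0.04 over all genes tested. The calls fell among the core histones, H2A, H2B, H3 and H4, which package DNA and are made mostly during replication: 22 of 35 tested core genes were higher, 34 had a positive fold change, and their range was -0.39 to 2.76 with a median of 1.3. Of 8 linker histone genes 1 was higher, hil-6, with a median of 0.51. None of the 5 replacement variants, such as the H3.3 gene his-72 and the H2A.Z gene htz-1, was called (1 higher at an unadjusted p under 0.05), with a median of 0.07. The split into these classes was made after the values had been seen.

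The summed core histone level was 349.9, 263.3 and 315 CPM (counts scaled to a common library size) in cfp-1 libraries, against 142.5 and 121.3 in sin-3 libraries and 301.7, 394.1 and 354.4 in WT. The cfp-1 libraries lay within or just below the WT range, and both sin-3 libraries were below every other library of these strains. Linker histone genes summed to 2972, 3003 and 2541 CPM in cfp-1 libraries, against 2294 and 2035 in sin-3, and variants to 3210, 3038 and 3032 CPM, against 3028 and 2828. Relative to WT, 28 of the 35 core genes were lower in sin-3 embryos (median -1.3), whereas in cfp-1 embryos 1 was higher and none lower (median -0.15).

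The histone gene with the smallest p was his-32, which encodes an H3. his-32 had 1473, 1412 and 1605 counts in cfp-1 libraries, against 518 and 424 in sin-3 libraries, with a log2 fold change of 1.67 (SE 0.17, adjusted p = 0.000219) and a WT mean of 1851 ± 158 (SD, n = 3). his-8 had 79.7, 53.8 and 89 counts in cfp-1 libraries, against 15.1 and 7.54 in sin-3 libraries (log2 fold change 2.76, SE 0.43, adjusted p = 0.00298), and his-7 had 97.5, 99.3 and 114, against 26 and 35.8 (1.72, SE 0.27, adjusted p = 0.00305). his-41 had 371, 438 and 581 counts in cfp-1 libraries, against 214 and 184 in sin-3 libraries (1.22, SE 0.20, adjusted p = 0.00387). In none of these genes did the libraries overlap. Replication-type histone messages mostly lack polyA tails and the libraries were polyA selected. The single values, the calls and the summed levels therefore measure only the captured part of these messages. Whether that part differs between the strains was not tested. Many copies are also near identical in sequence, so the value of a single copy is uncertain. The count of 23 was 6 without sin-3 replicate 1, 2 without sin-3 replicate 2, 15 with an embryo stage score as a covariate and 17 with exon-length offsets, and the median stayed between 0.68 and 1.32 over all the alternatives.

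**Figure D2:**
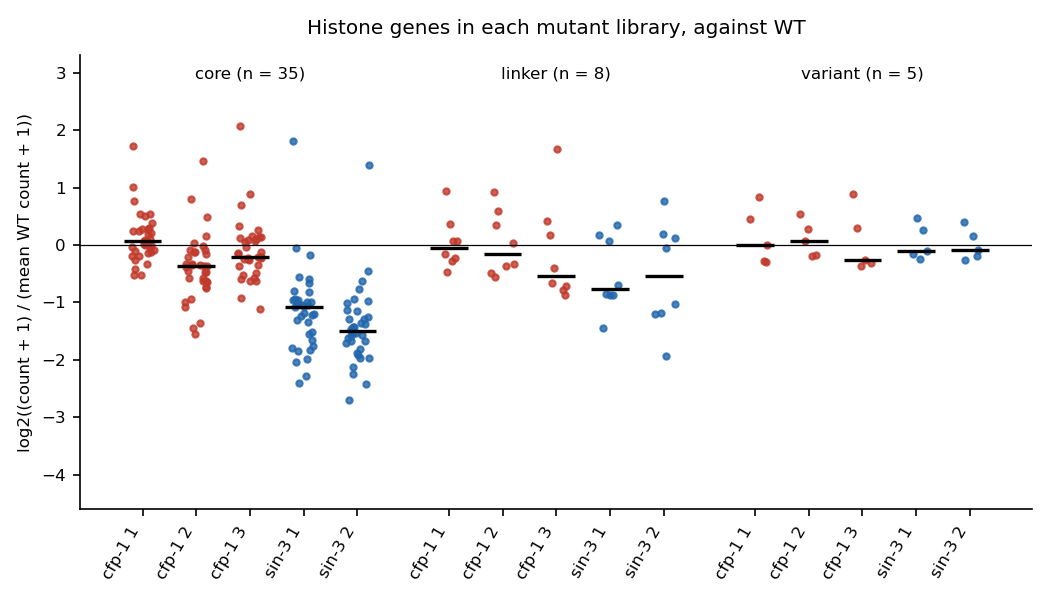
Each point is a histone gene's normalised count in a mutant library relative to its WT mean, on a log2 scale with 1 added to both; columns are the cfp-1 (red) and sin-3 (blue) libraries for core (35), linker (8) and variant (5) histones, and black lines are medians. The medians of core genes are well below 0 in both sin-3 libraries and near 0 in the cfp-1 libraries, while variant genes centre near 0 in all.

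A minority of genes for ribosomes and the respiratory chain were higher in cfp-1 embryos, by small amounts. Of 81 cytoplasmic ribosomal protein genes 24 (29.6%) were higher and none lower, beside 6.24% and 5.34% over all genes (47 and 0 at an unadjusted p under 0.05, 29 and 0 with DESeq2), and 77 had a positive fold change, with a median of 0.28. ubl-1, which encodes a ubiquitin fused to a small-subunit protein, had 3604, 3427 and 3364 counts in cfp-1 libraries, against 2332 and 2290.4 in sin-3 libraries (log2 fold change 0.58, SE 0.09, adjusted p = 0.00362). rpl-25.2 had 12959, 8120.3 and 9122 counts in cfp-1 libraries, against 4963 and 4237 in sin-3 libraries (1.13, SE 0.21, adjusted p = 0.00666). rpl-28 (0.61, adjusted p = 0.00567) and rla-2 (0.72, adjusted p = 0.00827) were higher as well. Both mutants were mostly below WT: 56 of the 81 genes were lower in cfp-1 (median -0.38) and 78 in sin-3 (median -0.69). The summed level was 26470, 25110 and 24220 CPM in cfp-1 libraries, against 20150 and 19760 CPM in sin-3 and 30410, 35030 and 32540 CPM in WT.

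The ribosomal protein result turned with the treatment of gene length: with exon-length offsets 4 of the 81 genes were called and the median was -0.05. The count was also 14 without cfp-1 replicate 1, 1 without sin-3 replicate 1, 0 without sin-3 replicate 2 and 11 with a stage covariate.

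Mitochondrial ribosomal protein genes behaved in a similar way, with 17 of 68 (25%) higher and none lower, beside 6.24% and 5.34% of all genes (36 and 1 at an unadjusted p under 0.05, 24 and 1 with DESeq2), and a median of 0.31. mrps-25 had 1127, 698 and 955 counts in cfp-1 libraries, against 419.5 and 463 in sin-3 libraries, and its log2 fold change was 1.07 (SE 0.18, adjusted p = 0.00435). mrps-10 (0.87, adjusted p = 0.00646), mrpl-48 (0.77, adjusted p = 0.00647) and mrpl-49 (0.76, adjusted p = 0.00904) followed. The summed level was 3559, 3123 and 3427 CPM in cfp-1 libraries, against 2794 and 2699 CPM in sin-3. Relative to WT, 29 of these genes were lower in sin-3 and none higher, and 7 were higher and 7 lower in cfp-1. With exon-length offsets 9 were higher and 1 lower, at a median of 0.14. The count of 17 was 7 without cfp-1 replicate 1, 8 without cfp-1 replicate 3, 26 without set-2 replicate 2, 1 without sin-3 replicate 1 and 0 without sin-3 replicate 2.

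Among 52 nuclear genes of the respiratory chain and ATP synthase, 12 were higher (23.1%, beside 6.24% of all genes) and 1 lower (1.92%, beside 5.34%), with a median of 0.22 and summed levels of 15190, 14270 and 15480 CPM in cfp-1 libraries, against 13280 and 12930 CPM in sin-3. The cytochrome oxidase subunit gene cox-6C had 2457, 2314 and 2558 counts in cfp-1 libraries, against 1711 and 1572 in sin-3 libraries (log2 fold change 0.57, SE 0.12, adjusted p = 0.0108). The complex I genes lpd-5 (0.91, adjusted p = 0.0133) and nuo-3 (0.72, adjusted p = 0.0162) and the ATP synthase gene atp-5 (0.69, adjusted p = 0.0161) were higher. The exception was asb-2, an ATP synthase subunit b gene, with 2344, 2688 and 2588 counts in cfp-1 libraries, against 4471 and 4683 in sin-3 libraries (-0.85, SE 0.10, adjusted p = 0.000895). asb-2 averaged 5169 ± 469 in WT (SD, n = 3), and it was below WT in cfp-1 embryos (-1.03, adjusted p = 5.09e-05), against -0.18 in sin-3 embryos (adjusted p = 0.244). The count of 12 was 4 without cfp-1 replicate 3, 0 without either sin-3 replicate, and 4 with exon-length offsets.

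The splicing genes that were higher encode small proteins. Of 51 splicing genes, 7 were higher (13.7%, beside 6.24% of all genes) and 3 lower (5.88%, beside 5.34%). The excess of higher genes rests on this test: 10 were higher and 11 lower at an unadjusted p under 0.05, and 8 and 10 with DESeq2. The Sm-like ring genes lsm-4, lsm-5, lsm-6 and lsm-7, the Sm genes snr-6 and snr-7 and the SF3b subunit gene sftb-6 were higher. lsm-5 had 5161, 3847 and 5322 counts in cfp-1 libraries, against 1852 and 1771 in sin-3 libraries (log2 fold change 1.40, SE 0.16, adjusted p = 0.000545), and sftb-6 had 5399, 4403 and 6132, against 2564 and 2389 (1.10, SE 0.17, adjusted p = 0.00256). The lower genes were snrp-200, the helicase of the U5 particle (-0.62, adjusted p = 0.0171), prp-4 (-0.48, adjusted p = 0.0152) and prp-19 (-0.51, adjusted p = 0.0418). snrp-200 has a summed exon length of 6817 bases, against 276 for lsm-5. With exon-length offsets 3 were higher and 3 lower. The counts were 3 and 1 without cfp-1 replicate 1, 2 and 1 without cfp-1 replicate 3, 2 and 0 without sin-3 replicate 1, and 1 and 0 without sin-3 replicate 2. Without set-2 replicate 2 they were 9 and 8, and without cfp-1 replicate 2 they were 9 and 6.

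Of 42 translation factor genes 6 were higher (14.3%, beside 6.24% of all genes) and 1 lower (2.38%, beside 5.34%), and DESeq2 called 11 and 2. iff-1, the germline eIF5A, had 28500.4, 18710.1 and 24644 counts in cfp-1 libraries, against 11607 and 9928 in sin-3 libraries (log2 fold change 1.15, SE 0.25, adjusted p = 0.0135). The eIF4E genes split: ife-3 (0.75, adjusted p = 0.0159) and ife-1 (0.85, adjusted p = 0.0163) were higher and ife-5 was lower (-0.83, adjusted p = 0.0223). The count of 6 was 11 without set-2 replicate 2, 3 without WT replicate 3 or cfp-1 replicate 3, 4 without cfp-1 replicate 1 and 0 without either sin-3 replicate. Of 31 aminoacyl-tRNA synthetase genes 3 were higher (9.68%, beside 6.24% of all genes) and none lower (6 and 1 at an unadjusted p under 0.05, 4 and 1 with DESeq2), led by nars-1 (0.54, adjusted p = 0.00899). The count of 3 was 1 without WT replicate 3, set-2 replicate 1 or 3, or cfp-1 replicate 1 or 3, and 0 without either sin-3 replicate. Of 22 tricarboxylic acid cycle genes 2 were higher (9.09%) and none lower, but 7 of the 22 had a positive fold change and the median was -0.13, with 4 higher and 6 lower at an unadjusted p under 0.05 and 2 and 3 with DESeq2. The higher genes were dld-1, the dihydrolipoamide dehydrogenase shared by the 2-oxoacid dehydrogenases (0.55, adjusted p = 0.0121), and suca-1, a succinyl-CoA synthetase subunit (0.59, adjusted p = 0.0161), and both calls were lost without either sin-3 replicate. None of the 33 proteasome genes was called by edgeR (2 higher and 1 lower at an unadjusted p under 0.05), and 1 was called by DESeq2.

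**Figure D3:**
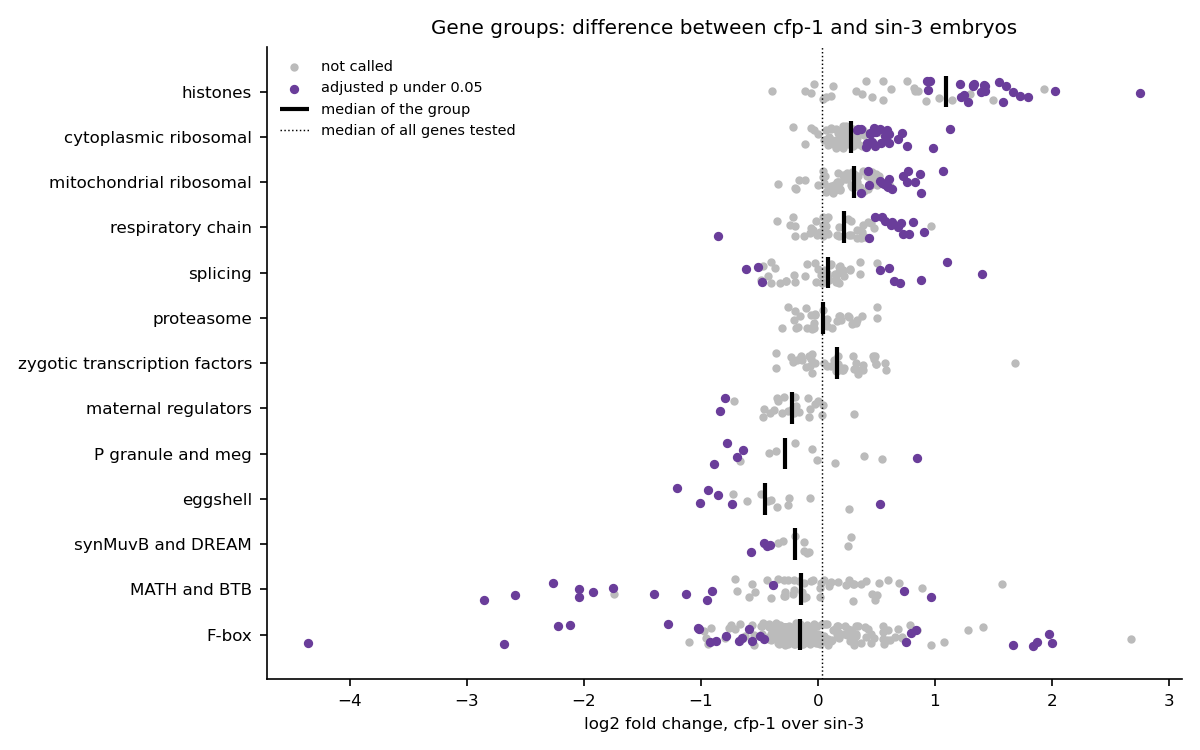
Log2 fold change of cfp-1 over sin-3 for every tested gene of 13 groups; purple points passed the test, grey points did not, black bars are group medians and the dotted line is the median of all genes tested (0.04). Histones lie furthest right (median 1.09), and the eggshell group lies furthest left (median -0.46).

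The summed exon length of a gene went with the difference across the whole transcriptome. Tested genes were split into 3 classes of equal size. In the class with the shortest exon sums (median 813 bases), the median log2 fold change was 0.21, with 462 genes higher (12%) and 85 lower (2.21%). In the middle class (median 1461 bases) it was 0.04, with 175 higher and 159 lower. In the longest class (median 2694 bases) it was -0.15, with 84 higher (2.18%) and 373 lower (9.69%). Ribosomal, small nuclear ribonucleoprotein and core histone genes are short, and the part of length in each group's difference was not tested beyond the offsets given beside the counts. With those offsets over all genes, 520 were higher and 633 lower, and 920 of the 1338 calls remained.

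**Figure D4:**
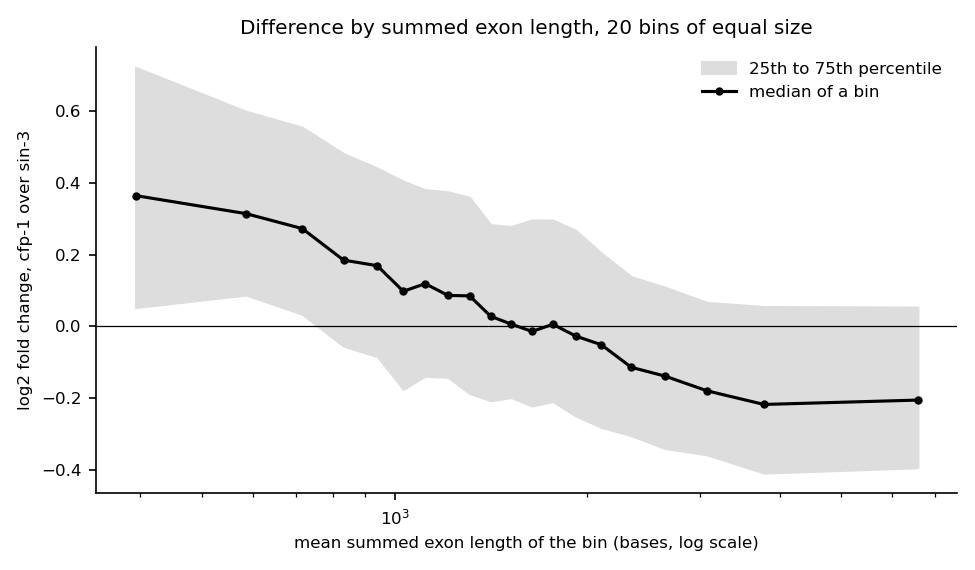
Median (points) and 25th to 75th percentile (grey band) of the log2 fold change of cfp-1 over sin-3 in 20 bins of tested genes ordered by summed exon length in bases (log axis). The median is 0.37 in the shortest bin (mean length 393 bases) and -0.21 in the longest (6585 bases).

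Several lists of transcripts that the mother loads into the egg had medians below 0. The 16 eggshell and egg activation genes had 5 lower (31.2%, beside 5.34% of all genes) and 1 higher (6.25%, beside 6.24%), with a median of -0.46 (8 lower and 1 higher with DESeq2). egg-1, an oocyte surface protein of the LDL receptor family, had 361, 468 and 552 counts in cfp-1 libraries, against 868 and 985 in sin-3 libraries, with a WT mean of 281 ± 34.1 (SD, n = 3). Its log2 fold change was -1.01 (SE 0.19, adjusted p = 0.00811), and it was above WT in both mutants, by 0.71 in cfp-1 and 1.72 in sin-3. The chitin synthase gene chs-1 had 348, 866 and 828 counts in cfp-1 libraries, against 1478 and 1657 in sin-3 libraries (-1.21, SE 0.31, adjusted p = 0.0292). perm-5 (-0.73, adjusted p = 0.00822) and the chitin-binding gene cbd-1 (-0.85, adjusted p = 0.0247) were lower, and perm-3 was higher (0.53, adjusted p = 0.00646). Relative to WT, 10 of the 16 were higher in cfp-1 (median 0.65) and 14 in sin-3 (median 1.24).

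The summed eggshell level was 1776, 2203 and 2266 CPM in cfp-1 libraries, against 2708 and 2750 CPM in sin-3 and 1494 to 1718 CPM in WT. Every cfp-1 library was above WT and below both sin-3 libraries. Without sin-3 replicate 1 the group had 1 gene lower, without sin-3 replicate 2 none, and with a stage covariate 1.

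Among 25 maternal regulators of cell fate, 2 were lower (8%, beside 5.34% of all genes): mex-3 and fbf-2. mex-3, a KH-domain RNA-binding protein that patterns the early embryo, had 15303, 15698 and 16596 counts in cfp-1 libraries, against 27686 and 28938 in sin-3 libraries, with a WT mean of 12911 ± 1504 (SD, n = 3). Its log2 fold change was -0.84 (SE 0.13, adjusted p = 0.00287). fbf-2, a PUF family translational repressor, had 92.8, 81.3 and 119.4 counts in cfp-1 libraries, against 167 and 172 in sin-3 libraries (-0.79, SE 0.22, adjusted p = 0.0405), a call lost in 14 alternative settings. The count of 2 ran between 0 without sin-3 replicate 2 and 4 without set-2 replicate 2, and it was 6 with DESeq2. The group's median was -0.22, and 14 of its genes were above WT in cfp-1 and 23 in sin-3. Its summed level was 10340, 11270 and 11590 CPM in cfp-1 libraries, against 13140 and 13050 CPM in sin-3 libraries and 7224 to 8892 CPM in WT.

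Of 14 P granule and meg genes, 4 were lower (28.6%, beside 5.34% of all genes) and 1 higher (7.14%, near the 6.24% of all genes). The germ granule scaffold genes meg-1 (-0.78, adjusted p = 0.01), meg-3 (-0.64, adjusted p = 0.0179) and meg-4 (-0.89, adjusted p = 0.0144) and the GLD-3 partner gene gls-1 (-0.69, adjusted p = 0.0192) were lower. meg-1 had 5447, 7240.1 and 7107 counts in cfp-1 libraries, against 10071 and 12549 in sin-3 libraries, with a WT mean of 6545. The higher gene was ife-1, which also counts among the translation factors. Of these 14 genes, 1 was lower without sin-3 replicate 1, none without sin-3 replicate 2, and 2 with a stage covariate. The gls-1 call was lost with exon-length offsets.

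None of 43 early zygotic transcription factor genes was called by edgeR or DESeq2 (3 higher and 1 lower at an unadjusted p under 0.05), with a median of 0.16. Their summed level was 1532, 1446 and 1353 CPM in cfp-1 libraries, against 1510 and 1458 CPM in sin-3 and 1893 to 2059 CPM in WT. A stage score, the mean log2 CPM of these zygotic genes minus that of the maternal regulators, was -3.754, -4.203 and -4.318 in cfp-1 libraries, against -4.444 and -4.479 in sin-3 and -3.374 to -3.013 in WT. All cfp-1 and sin-3 libraries were below WT, and the sin-3 libraries were below the cfp-1 libraries. Stage could differ between collections of embryos as well as between strains, and these cannot be told apart here. With the score as a covariate 398 genes were higher and 208 lower, and 531 of the 1338 calls remained.

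The levels of other tissues were checked with fixed markers. Of 127 sperm genes listed, 45 were at 0 in all 5 libraries, 9 were tested and none was called by edgeR or DESeq2 (2 higher at an unadjusted p under 0.05; median log2 fold change 0.97), with summed levels of 68.22 to 76.89 CPM in cfp-1 libraries, against 79.26 and 72.35 CPM in sin-3. Markers of adult intestine and yolk summed to 13.3 to 19.34 CPM in cfp-1 libraries, against 14.47 and 15.44 CPM (6 of 12 tested, 1 at 0 in all 5). Gonad sheath and spermatheca markers summed to 124.7, 163.8 and 149 CPM in cfp-1 libraries, against 199.3 and 191.3 CPM in sin-3 and 134.5 to 157.5 CPM in WT. Of 8 such markers 3 were tested, with a median log2 fold change of -0.38. None was called by edgeR, 2 were lower at an unadjusted p under 0.05 and 1 was lower with DESeq2. The summed level of these markers was higher in both sin-3 libraries than in any cfp-1 or WT library, as was that of eggshell genes. The part of maternal tissue in the eggshell difference was not tested. Late embryo differentiation genes summed to 1310 to 2094 CPM in cfp-1 libraries, against 1444 and 1743 CPM, and the touch neuron tubulin gene mec-7 alone of 22 was called by edgeR (1.02, adjusted p = 0.0497), whereas DESeq2 called 2 higher and 1 lower. The mec-7 call was lost in 18 of 24 alternatives, among them those that left out any 1 WT, cfp-1 or sin-3 library.

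Genes for other chromatin regulators that passed the test were lower in cfp-1. Of 20 further histone methyltransferases and demethylases 4 were lower (20%, beside 5.34% of all genes) and none higher, with a median of -0.26, and 9 were lower and none higher both at an unadjusted p under 0.05 and with DESeq2. amx-1, of the LSD1 demethylase family, had 2666, 3059 and 3243 counts in cfp-1 libraries, against 4641 and 4654 in sin-3 libraries (log2 fold change -0.64, SE 0.10, adjusted p = 0.00326), with a WT mean of 3394 ± 151 (SD, n = 3). The H3 lysine 9 methyltransferase genes set-25 (-0.78, adjusted p = 0.0164) and met-2 (-0.44, adjusted p = 0.0377) and the Polycomb repressive complex gene mes-3 (-0.67, adjusted p = 0.0255) were also lower. Of 13 synMuvB and DREAM repressor genes 4 were lower (30.8%) and none higher (5 and 1 at an unadjusted p under 0.05, 5 and 0 with DESeq2): lin-61 (-0.46, adjusted p = 0.0197), the E2F gene efl-1 (-0.41, adjusted p = 0.0281), lin-15B (-0.58, adjusted p = 0.035) and the DP gene dpl-1 (-0.44, adjusted p = 0.0497). Of 20 and 13 genes, 1 and 0 were called without sin-3 replicate 1, none in either list without sin-3 replicate 2, 2 and 0 without cfp-1 replicate 1, 4 and 1 without cfp-1 replicate 3, and 3 and 2 without WT replicate 3. With a stage covariate 1 and 0 were called, and with exon-length offsets 2 and 2, where met-2 and mes-3 lost their calls.

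Of 39 Argonaute and small RNA genes 5 were lower (12.8%, beside 5.34% of all genes) and 1 higher (2.56%, beside 6.24%), with 12 and 2 at an unadjusted p under 0.05 and 7 and 1 with DESeq2. mut-15, a scaffold of the mutator foci that amplify siRNAs, had 1475, 1429 and 1515 counts in cfp-1 libraries, against 2096 and 2409 in sin-3 libraries (-0.61, SE 0.10, adjusted p = 0.00342). The Argonaute genes nrde-3 (-0.54, adjusted p = 0.0078), sago-1 (-0.68, adjusted p = 0.0111) and ppw-2 (-0.98, adjusted p = 0.0242) were lower and the piRNA biogenesis gene tofu-5 was higher (0.57, adjusted p = 0.0223). The number lower was 2 without sin-3 replicate 1, 0 without sin-3 replicate 2, and 3 without cfp-1 replicate 1 or 3. The tested genes of this list have a median summed exon length of 3218 bases. In the longest class of all genes 9.69% were lower and 2.18% higher. With exon-length offsets the calls on mut-15, nrde-3, sago-1, ppw-2 and tofu-5 held.

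Of 30 cyclin and mitotic kinase genes 4 were lower (13.3%, beside 5.34% of all genes) and none higher, with 11 and 0 at an unadjusted p under 0.05 and 9 and 0 with DESeq2. The 4 were plk-3, the spindle checkpoint kinase gene bub-1 (-0.40, adjusted p = 0.0203), the INCENP gene icp-1 (-0.42, adjusted p = 0.025) and the phosphatase gene cdc-25.1 (-0.44, adjusted p = 0.0456). Without cfp-1 replicate 1 or either sin-3 replicate the count was 1, and without set-2 replicate 2 it was 8. The bub-1 and cdc-25.1 calls were lost with exon-length offsets. Of 31 replication genes 1 was higher (3.23%) and 3 lower (9.68%), and DESeq2 called 1 and 6. psf-2 was higher (0.61, adjusted p = 0.017) and cdt-1 (-0.47, adjusted p = 0.0236), div-1 (-0.34, adjusted p = 0.038) and orc-1 (-0.39, adjusted p = 0.0459) were lower. No lower gene was called without cfp-1 replicate 1 or either sin-3 replicate, and 1 without WT replicate 3 or cfp-1 replicate 3. The psf-2 call was lost without cfp-1 replicate 3 or either sin-3 replicate and with exon-length offsets. Of 20 meiotic chromosome genes syp-2, of the synaptonemal complex, was higher (0.87, adjusted p = 0.012), and it was not called without either sin-3 replicate, while DESeq2 called 3 of the 20 higher.

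F-box and MATH/BTB genes form large families of substrate adaptors for ubiquitin ligases. Of 212 F-box genes tested 8 were higher (3.77%) and 16 lower (7.55%), beside 6.24% and 5.34% of all genes. The number lower was 26 with DESeq2, 34 with exon-length offsets and 48 at an unadjusted p under 0.05 (8, 6 and 20 higher in the same order). Of 60 MATH and BTB genes 2 were higher (3.33%) and 12 lower (20%). fbxa-107 had 46.9, 53.8 and 53.2 counts in cfp-1 libraries, against 217 and 229 in sin-3 libraries and 537 ± 77.6 in WT (SD, n = 3), with a log2 fold change of -2.12 (SE 0.19, adjusted p = 7.35e-05). fbxa-120 had 175, 124 and 105 counts in cfp-1 libraries, against 651 and 612 in sin-3 libraries and 272 ± 1.16 in WT (SD, n = 3; -2.22, SE 0.20, adjusted p = 8.86e-05). fbxa-95 went the other way, with 661, 525 and 574 counts in cfp-1 libraries, against 138 and 154 in sin-3 libraries (2.00, SE 0.18, adjusted p = 7.51e-05). The libraries of these genes did not overlap between the mutants. Without sin-3 replicate 1 or 2, 1 F-box gene was higher and 6 were lower, and 4 MATH and BTB genes were lower. Without cfp-1 replicate 1, 1 F-box gene was higher, and 7 MATH and BTB genes were lower. The higher F-box genes numbered 2 without cfp-1 replicate 3 and 3 without WT replicate 3.

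Many of the MATH and BTB calls were neighbours. Of the 12 lower genes 11 lie on chromosome II, where 51 of the 60 tested genes are. Between 2027612 and 2045605 on chromosome II, 7 consecutive tested genes were lower: bath-1, bath-3, bath-5, btb-4, bath-19, bath-20 and bath-24. bath-1 had 21.6, 53.8 and 40.2 counts in cfp-1 libraries, against 248 and 303 in sin-3 libraries and 245 ± 53.4 in WT (SD, n = 3; log2 fold change -2.85, SE 0.32, adjusted p = 0.000426). btb-4 had 44.1, 34.7 and 43.4 counts in cfp-1 libraries, against 166 and 171 in sin-3 libraries and 178 ± 30.5 in WT (SD, n = 3; -2.04, SE 0.22, adjusted p = 0.000357). In both genes the sin-3 libraries lay at the WT level and the cfp-1 libraries below it.

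Further left on the same chromosome, between 1916713 and 1927347, 6 consecutive tested genes were lower: bath-4, bath-7, bath-2, F52C6.4, F52C6.3 and F52C6.2. bath-7 had 6.56, 16.7 and 14.1 counts in cfp-1 libraries, against 82.3 and 66.9 in sin-3 libraries and 88.1 ± 7.34 in WT (SD, n = 3; -2.59, SE 0.33, adjusted p = 0.00122). F52C6.3 had 4.69, 4.78 and 6.51 counts, against 53.5 and 52.8 in sin-3 libraries, with a WT mean of 49.1. These family members are close in sequence, and reads that map to more than one of them could be split or lost in the counting.

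Runs of at least 3 consecutive tested genes called in the same direction were counted over the genome. There were 12 runs of higher genes, with 42 genes, and 5 runs of lower genes, with 23. Around plk-3 on chromosome IV (7466681-7476182), F55G1.7, plk-3, F55G1.6 and slc-25A18.2 were lower in cfp-1, and the next run on that chromosome was the histone cluster his-61, his-62, his-60 and his-59 (7485834-7488659), which was higher. On the same chromosome C27D8.3, C27D8.2, C27D8.1, idpp-7, T23F6.3 and rbd-1 were higher (12706700-12730095), of which some overlap each other on opposite strands. Histone genes made up other runs on chromosome V, with his-8, his-7, his-6 and his-5, and with his-3, his-2 and his-1. The number of runs that genes of one family or one operon would give was not computed.

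**Figure D5:**
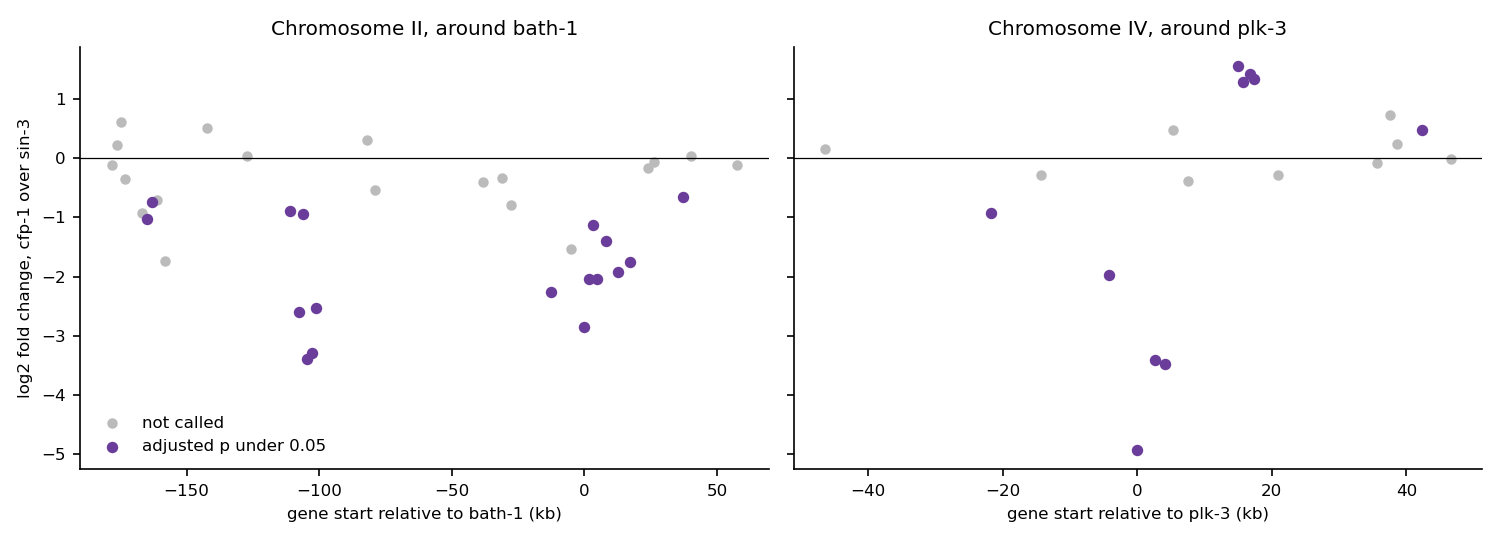
Log2 fold change of cfp-1 over sin-3 for tested genes around bath-1 on chromosome II and around plk-3 on chromosome IV, by distance of the gene start in kb; purple points passed the test. Runs of neighbouring purple points lie well below 0, down to -2.85 at bath-1 and -4.92 at plk-3, and the called histone cluster to the right of plk-3 lies above 0.

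The strains differ at the mutated loci, so genes close to them were counted apart. Within 2 Mb of cfp-1 on chromosome IV, 27 genes (8.01%) were higher and 19 (5.64%) lower of 337 tested, beside 121 (8.19%) and 78 (5.28%) of 1478 on the rest of that chromosome. Within 2 Mb of sin-3 on chromosome I, 47 (7.03%) were higher and 57 (8.52%) lower of 669, beside 82 (5.87%) and 106 (7.58%) of 1398 on the rest. The shares of calls of any size near each locus were thus close to those further away. These shares do not show where the largest differences lie. Of the 10 highest fold changes, crml-1 and C04F12.5 lie within 2 Mb of sin-3. C27D8.3, idpp-7 and smz-1 lie within 2 Mb of cfp-1, as does the rest of the run that holds C27D8.3 and idpp-7. The others, gst-43, C55C3.3, R01H10.4, scb-1 and hint-3, lie outside both windows. The part of the mutated loci in these differences was not tested. Other named genes near cfp-1 include the selenophosphate synthetase gene seld-1, with 707, 774 and 866 counts in cfp-1 libraries, against 202 and 186 in sin-3 libraries (2.02, SE 0.20, adjusted p = 0.000145), and the receptor guanylyl cyclase gene gcy-18, with 31.9, 38.3 and 42.3, against 144 and 155 (-2.0, SE 0.25, adjusted p = 0.00109). Near sin-3, the phosphoenolpyruvate carboxykinase gene pck-2 had 11376, 14593 and 14434 counts in cfp-1 libraries, against 28503 and 31414 in sin-3 libraries (-1.15, SE 0.12, adjusted p = 0.00034). Both seld-1 and pck-2 overlap 2 coding genes each.

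By chromosome, the share of higher genes ran between 3.55% on X and 8.15% on IV, and that of lower genes between 3.42% on X and 7.88% on I. On X, 55 of 1551 tested genes were higher and 53 lower, fewer in each direction than on any autosome. None of 12 genes of the mitochondrial genome was called by edgeR, with 6 higher at an unadjusted p under 0.05.

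Metabolic and environmental response genes were mixed. The fatty acid desaturase genes fat-2 (1.13, adjusted p = 0.00323) and fat-3 (0.79, adjusted p = 0.00296), which act in polyunsaturated fatty acid synthesis, were higher in cfp-1. The stearoyl-CoA desaturase gene fat-6 (-1.62, adjusted p = 0.0203) and the peroxisomal acyl-CoA oxidase gene acox-1.1 (-0.90, adjusted p = 0.0128) were lower, and the call on fat-6 was lost with DESeq2. Without sin-3 replicate 1, 1 of 22 fatty acid genes tested was higher and none lower, and without sin-3 replicate 2 none was called. fat-2 had 273, 321 and 291 counts in cfp-1 libraries, against 137 and 133 in sin-3 libraries and 145 ± 15 in WT (SD, n = 3). fat-3 had 688, 605 and 693 counts in cfp-1 libraries, against 377 and 390.1 in sin-3 libraries and 846 ± 16 in WT (SD, n = 3). fat-2 was thus above WT in cfp-1, and fat-3 below WT in both mutants.

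Of 121 detoxification genes 6 were higher (4.96%, beside 6.24% of all genes) and 5 lower (4.13%, beside 5.34%), with gst-43 and the glucuronosyltransferase family gene ugt-64 as the genes with the smallest p in each direction. The counts were 3 and 3 without cfp-1 replicate 1 or 3, 1 and 1 without sin-3 replicate 1, and 1 and 0 without sin-3 replicate 2, and 5 and 3 without WT replicate 3 or set-2 replicate 1 or 3. ugt-64 had 607, 544 and 653 counts in cfp-1 libraries, against 993 and 1185 in sin-3 libraries and 350.1 ± 23.4 in WT (SD, n = 3; -0.86, SE 0.16, adjusted p = 0.00646). Of 16 heat shock and chaperone genes 2 were lower (12.5%, beside 5.34% of all genes) and none higher. They were hsf-1, the heat shock transcription factor (-0.41, adjusted p = 0.0269), and the small heat shock gene sip-1 (-0.76, adjusted p = 0.0329). The hsf-1 call was lost with exon-length offsets. sip-1 had 19177, 14774 and 24095 counts in cfp-1 libraries, against 33085 and 32519 in sin-3 libraries, without overlap. The count of 2 was 0 without cfp-1 replicate 1 or either sin-3 replicate.

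Of 170 nuclear hormone receptor genes 5 were higher (2.94%) and 6 lower (3.53%), beside 6.24% and 5.34% of all genes (9 and 7 with DESeq2). The counts were 1 and 0 without either sin-3 replicate, 3 and 3 without cfp-1 replicate 1, 5 and 3 without cfp-1 replicate 3, and 9 and 8 without set-2 replicate 2. nhr-47 had 1959.8, 2200.5 and 2223 counts in cfp-1 libraries, against 1083 and 1118 in sin-3 libraries (0.95, SE 0.12, adjusted p = 0.00118), and nhr-181 had 155, 213 and 186, against 476 and 438 (-1.31, SE 0.26, adjusted p = 0.00921). Of 46 homeobox ceh genes ceh-91 alone was called by edgeR, whereas DESeq2 called 4 lower (5 higher and 4 lower at an unadjusted p under 0.05). ceh-91 had 1129, 1137 and 1177 counts in cfp-1 libraries, against 2024 and 1965 in sin-3 libraries (-0.80, SE 0.10, adjusted p = 0.000895). Genes of late-differentiating tissues had low counts. The genes higher were 3 of 57 cuticle collagens (5.26%), 3 of 22 hedgehog-related genes (13.6%) and 4 of 42 neuropeptide and insulin-like genes (9.52%). Over all genes the share was 6.24%, so that of collagens was near it. None of these lists held a lower gene (5.34% of all genes), at an unadjusted p under 0.05 or with DESeq2 either. Without sin-3 replicate 1 none of these lists held a call, and without sin-3 replicate 2 only 1 collagen gene was called. Without cfp-1 replicate 1 the counts for collagens, hedgehog-related and neuropeptide genes were 1, 2 and 4, without cfp-1 replicate 3 they were 2, 1 and 2, and without set-2 replicate 2 they were 5, 4 and 6. col-38, for example, had 73.1, 63.4 and 82.5 counts in cfp-1 libraries, against 16.5 and 27.3 in sin-3 libraries (1.71, SE 0.29, adjusted p = 0.00435). Of 143 chemoreceptor genes 2 were higher and 2 lower (1.4% each way; 2 and 0 with DESeq2), and of 41 C-type lectins clec-91 was lower (-0.49, adjusted p = 0.0353), a call lost without WT replicate 3 or any 1 cfp-1 or sin-3 library.

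The whole series was sequenced to between 21596949 and 35258557 counted reads a library. The cfp-1 libraries held 29169245, 23909575 and 26386239 counts, against 21596949 and 31792087 in the sin-3 libraries.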

How the data were processed

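The deposited counts were whole reads per gene and library, which the authors obtained by mapping directional polyA reads to the WS254 C. elegans genome release with STAR 2.4.1d, removing reads of low mapping score with SAMtools 0.1.19 and counting with HTSeq 0.7.2. Reads that match several genes can be lost in this step, and the strand setting of the counting is not given in the sources used here. The deposited comparison tables, which hold the authors' fold changes and p-values, were not used. All 11 libraries entered 1 model with strain as the only term, in edgeR 4.0.16 (R 4.3.3) with TMM factors and the quasi-likelihood test. Protein-coding genes with a mean normalised count above 10 were tested and p-values were adjusted by Benjamini-Hochberg over all 11547, with a threshold of 0.05. Positions are those of an Ensembl annotation of the WBcel235 assembly.

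The genes named are the subunits of both complexes; the 10 highest and 10 lowest fold changes among called genes whose libraries do not overlap and whose mean is at least 50 in the higher strain; the 5 smallest p in each direction; up to 4 called genes a direction in each list, by p; and called genes within 2 Mb of cfp-1 or sin-3 with a log2 fold change of at least 1 in size. Genes named as members of runs, and the remaining splicing and linker histone calls, were chosen after their values were seen. The gene lists and the comparison itself were chosen with earlier results of these data known. The alternatives were DESeq2 1.42.0, other scalings and filters, leaving out each library, blocks, a stage covariate and exon-length offsets. The code was tested on simulated data.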

Additional observations from a re-analysis of the deposited data

How the results depend on the processing

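DESeq2 called 852 genes higher and 1050 lower, DESeq2 size factors in edgeR 651 and 734, upper-quartile scaling 959 and 504, filterByExpr 675 and 597, no filter 680 and 500, all listed genes 704 and 605, and the 5 mutant libraries alone 564 and 509. An adjusted p under 0.01 left 177 and 146, the stage covariate 398 and 208, exon-length offsets 520 and 633, and TMM factors from all listed genes, chosen after seeing the data, 619 and 727. Leaving out each library gave 51 to 1000 higher and 57 to 1013 lower. With exon-length offsets 1 of the 1338 calls turned. The plk-3, crml-1, C27D8.3 and F55G1.6 calls held in all 24 alternatives.

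Whether replicate numbers pair the samples is not given in the sources used here. Correlations of deviations for cfp-1 and sin-3 were 0.0384 and 0.255 by description number and -0.255 by title number. With 2 sin-3 libraries the deviations of one mirror those of the other, so these correlations cannot decide it. A replicate block by description number gave 578 higher and 677 lower, and one by title number gave 2 and 2, with few residual degrees of freedom.

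Values near 0 changed sign, and the causes were not tested. The dpy-30 log2 fold change was -0.0867 with exon-length offsets. The rbbp-5 log2 fold change ran between -0.0484 and 0.355 over single libraries left out. The mrg-1 log2 fold change ran between -0.153 and 0.00514 in the same way, and was 0.0546 with the title-number block and 0.0744 with the stage covariate. The swd-2.1 log2 fold change ran between -0.0899 and 0.00785, and was 0.00935 with upper-quartile scaling and 0.0768 with the stage covariate. The rba-1 log2 fold change was 0.0485 with upper-quartile scaling, 0.00172 without a filter and 0.0657 with the stage covariate. A correction for GC content was not run.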

Other observations

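Further genes near the mutated loci differed between the mutants. Close to sin-3 on chromosome I, the SUMO protease gene ulp-5 had 104, 130.4 and 113 normalised counts in cfp-1 libraries, against 345 and 301 in sin-3 libraries, and a WT mean of 172 ± 3.45 (SD, n = 3). Its log2 fold change was -1.48 (SE 0.18, adjusted p = 0.00079, edgeR), and it was below WT in cfp-1 (-0.57, adjusted p = 0.0252) and above WT in sin-3 (0.91, adjusted p = 0.00399). The glutaminase gene glna-3 had 121, 90.9 and 107 counts in cfp-1 libraries, against 39.8 and 28.3 in sin-3 libraries (1.66, SE 0.29, adjusted p = 0.0049), and the prefoldin subunit gene pfd-6 had 7067, 5073 and 7064, against 3167 and 2978 (1.06, SE 0.20, adjusted p = 0.00784). The groups did not overlap in any of them. The glna-3 call was lost in 2 of the 24 alternatives and the pfd-6 call in 3, among them fits that left out a sin-3 library.

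Close to cfp-1 on chromosome IV, F02H6.3 had 1372, 1139.7 and 1330.1 counts in cfp-1 libraries, against 3026 and 3615 in sin-3 libraries (-1.37, SE 0.20, adjusted p = 0.00237), and K01G12.3 had 394, 366 and 355, against 728 and 812 (-1.05, SE 0.18, adjusted p = 0.00544). F02H6.3 averaged 1386 ± 61.2 in WT (SD, n = 3), the level of the cfp-1 libraries, and K01G12.3 averaged 262 ± 34.6 in WT (SD, n = 3), below both mutants. The K01G12.3 call was lost in 2 of the 24 alternatives, among them a fit that left out a sin-3 library. Among genes of adhesion and muscle attachment, the integrin beta gene pat-3 was lower in cfp-1, with 10885, 14634 and 12333 counts, against 17992 and 19185 in sin-3 libraries (-0.56, SE 0.14, adjusted p = 0.0288). It was the only call among 23 muscle and sarcomere genes. The pat-3 call was lost in 7 of the 24 alternatives, among them those without cfp-1 replicate 1 or 3 and with the stage covariate.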
